A study of Sus scrofa with 12 samples.

Results

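Proliferating pig muscle satellite cells given an inhibitor of the acetyltransferases CBP and p300 were compared with control cells by RNA-seq. The comparison took the 6 libraries collected at 0h, of 12 in the series, by their labelled arm and time: 3 of the control arm (WT in the titles, NC in the columns) and 3 of the arm named CBP. The other 6 libraries hold the same arms at 60h, in differentiation. The arm named CBP is taken to be cells given SGC-CBP30, because the treatment text names that compound, at a dose written as 5 uM/ml, for 48 h of proliferation and 60 h of differentiation. That text stands on all 12 samples, the controls too, and the arm names stand under a genotype tag. Every value given for the inhibitor depends on this reading. What the control cells received is not stated. All groups share a label of muscle satellite cells from a line called C3H, a name usually given to mouse material, kept in RPMI medium with 10% fetal bovine serum. Organism and genome build are those of the pig. No label says that replicates came from separate cultures, so the p-values measure the spread between these libraries, which may be technical.

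CBP (gene CREBBP) and p300 (EP300) are paralogous coactivators. Transcription factors bring them to enhancers and promoters, where they acetylate histones and other proteins, and their bromodomains bind acetylated lysines. SGC-CBP30 is a small molecule that occupies those bromodomains and leaves the acetyltransferase domain in place. In muscle precursors both proteins serve as coactivators of MYOD1 and MEF2 factors, and also of many signal-dependent factors, including those of the TGF-beta, Notch, interferon, retinoid and hypoxia pathways.

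The depth recovered from the FPKM values was 16095335 to 19155240 reads a library, of which 99.99% were counted on genes. Reads outside genes are not in this depth. In all, 11636 genes were tested, those that reached 1 FPKM in 3 or more libraries of the 12. FPKM divides a gene's reads by its length and by the depth of the library. Changes are given on the log2(FPKM + 1) scale, which understates those of low genes, and fold values are ratios of mean FPKM. A gene was called at a limma adjusted p under 0.05. On the first principal component of the 6 libraries, which held 80.4% of the variance, the control libraries stood between -23.93 and -23.06 and the inhibitor libraries between 23.24 and 24.37. The transcripts of the inhibitor's targets were themselves somewhat higher: CREBBP stood at 8.76, 8.09 and 7.53 FPKM in the control libraries and 10.2, 9.94 and 9.80 FPKM with the inhibitor (log2 change 0.27), and EP300 at 15.5, 13.7 and 13.8 and 18.4, 17.9 and 16.8 FPKM (log2 change 0.29). These 2 changes stand beside a median of 0.12 over all genes. RNA levels do not measure whether the bromodomains were occupied.

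Changes were numerous and mostly small, and the large ones were falls. Of the 11636 genes, 5148 were higher with the inhibitor (44.2%) and 2102 were lower (18.1%). The median change over all genes was 0.12 on the log2 scale, and median-of-ratios scaling, which sets the typical gene equal between libraries, moved it to 0.00. After that scaling 2990 genes were higher (25.7%) and 3087 lower (26.5%). Every gene called higher after scaling was also called higher before it, and every gene called lower before it was called lower after. All changes below are therefore given with their scaled values where the difference matters, and a rise of about 0.12 or less is no rise relative to the typical gene. At a log2 change of 1 or more, 48 genes were higher (0.413%) and 321 lower (2.76%). The 1st percentile of all changes lay at -1.64 and the 99th at 0.85 (-1.73 and 0.74 after scaling). The 3 control and 3 inhibitor values did not overlap for 7772 genes (66.8%).

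**Figure D1:**
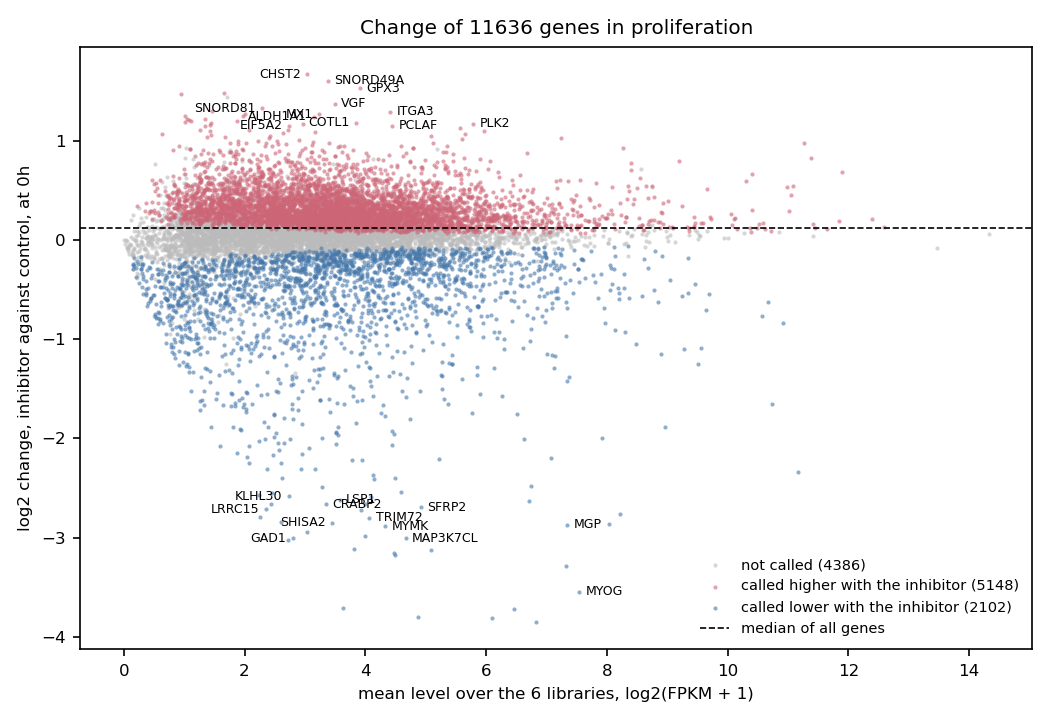
Each point is 1 of 11636 genes, with the mean level over the 6 libraries at 0h, log2(FPKM + 1), on the x axis and the log2 change between inhibitor and control on the y axis. Called genes are coloured by direction, the dashed line marks the median of all genes at 0.12, and the 24 labelled genes are the largest rises and falls outside the sarcomere, matrix and cell cycle lists. Falls reach below -3, and no gene rises above 2.

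Large falls were more frequent in the sarcomere, excitation-contraction, matrix and smooth muscle lists than over all genes, though more of them in number lay outside. Those lists and the replication and mitosis lists together hold 306 of the tested genes (2.63%). Of the 321 genes lower by a log2 change of 1 or more, 65 were members of those lists (20.2%, and 21.2% of the lists' members, beside 2.76% of all genes), 61 were members of other lists used here and 195 were in none. Of the 48 genes higher by as much, 0 were in the former lists, 12 in others and 36 in none. By list, 34 of 54 sarcomere, 10 of 32 excitation-contraction, 14 of 82 matrix and 8 of 20 smooth muscle members were large falls. A gene can stand on more than 1 list. No replication or mitosis member fell by that much. The replication and mitosis lists nevertheless rose by smaller amounts: 48 of 52 and 67 of 69 members were called higher (45 and 61 after scaling), with medians of 0.60 (0.48 after scaling) and 0.55 (0.43 after scaling).

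The deepest falls outside the sarcomere, matrix and cell cycle lists included, besides muscle genes given below, a neurotransmitter enzyme, secreted modulators and a retinoid carrier. GAD1 (ENSSSCG00000022233, chromosome 15, 76991863 to 77034819 in Sscrofa11.1), which makes the transmitter GABA from glutamate, stood at 12.4, 10.6 and 11.09 FPKM in the control libraries and at 0.658, 0.371 and 0.596 FPKM with the inhibitor. This 20.97-fold fall was called (limma log2 change -3.005 with SE 0.0829, adjusted p = 6.08e-11). MAP3K7CL (ENSSSCG00000038281, chromosome 13, 192488937 to 192534826) stood at 44.3, 42.7 and 46.2 FPKM against 5.09, 4.09 and 4.83 FPKM, a 9.51-fold fall. In both genes every inhibitor library lay below the lowest control library, which the rule that named them required.

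MGP (ENSSSCG00000037697, chromosome 5, 57665272 to 57669360), a secreted inhibitor of calcification that was not on the matrix list, was the most abundant of these non-muscle genes. Its values of 267, 300.4 and 287 FPKM in control cells fell to 38.8, 35.7 and 39.7 FPKM (limma log2 change -2.87 with SE 0.0560, adjusted p = 2.7e-12). SFRP2 (ENSSSCG00000009004, chromosome 8, 75337311 to 75345926), a secreted protein that modulates Wnt signalling, went from 53.7, 55.1 and 46.1 to 6.91, 7.27 and 7.13 FPKM, a 7.27-fold fall. CRABP2 (ENSSSCG00000006472, chromosome 4, 93388198 to 93393861), which carries retinoic acid to its nuclear receptors, went from 16.4, 16.4 and 17.1 to 1.497, 1.71 and 2.21 FPKM, a 9.22-fold fall. Groups that do not overlap were a condition for naming these 3 genes, and 66.8% of all genes met it.

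The other large falls were of the same size. SHISA2, an endoplasmic reticulum protein that limits maturation of Wnt and FGF receptors, fell 10.9-fold (from 18.3 ± 1.55 to 1.67 ± 0.0637 FPKM; SD, n = 3). LRRC15, a membrane protein known from activated fibroblasts, fell 22.4-fold to 0.350 ± 0.0907 FPKM. LSP1, an actin-binding protein first described in leukocytes, fell 8.24-fold, and KLHL30, of the kelch family, fell 11.4-fold. The muscle genes that met the same rule were MYOG, the differentiation factor (log2 change -3.54), MYMK, the fusion protein (-2.89), and TRIM72, which reseals torn membranes (-2.80).

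Some genes went from clear to nearly absent. A mean of 2 FPKM or more in 1 group and under 0.25 in the other was met by 6 genes with a symbol, all of them lower with the inhibitor. ASPN, a small leucine-rich matrix protein that binds TGF-beta, stood at 7.09, 7.74 and 7.12 FPKM in control cells and 0.0808, 0.241 and 0.299 FPKM with the inhibitor. HJV, a BMP co-receptor of muscle and liver, stood at 3.07, 3.50 and 3.25 against 0.0856, 0.234 and 0.146 FPKM. RXRG, the retinoid X receptor found in muscle, stood at 2.40, 2.66 and 3.41 against 0.155, 0.283 and 0.177 FPKM. The microtubule-binding ligase TRIM54 and the M-band protein MYOM2 fell to 0.181 ± 0.0731 and 0.123 ± 0.0417 FPKM. The precursor of the muscle microRNA gene MIR1-2 was read 14 times in all over the 3 control libraries, with values of 1.23, 0.641 and 6.79 FPKM, and was listed at 0 in all 3 inhibitor libraries. Its call (limma adjusted p = 0.0284) did not hold without control replicate 3 (limma adjusted p = 0.123, in a range of 0.00612 to 0.123 over the alternatives).

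Rises were smaller and more mixed in kind. CHST2 (ENSSSCG00000022031, chromosome 13, 83818652 to 83822135), which adds sulfate to N-acetylglucosamine of cell-surface glycans, rose from 3.14, 2.70 and 2.90 to 11.14, 12.2 and 11.03 FPKM, 3.93-fold (limma log2 change 1.67 with SE 0.0571, adjusted p = 3.93e-10). GPX3 (ENSSSCG00000036438, chromosome 16, 71980467 to 71989011), the secreted glutathione peroxidase, rose from 6.19, 6.64 and 7.32 to 21.6, 21.7 and 20.4 FPKM. VGF (ENSSSCG00000039053, chromosome 3, 8888502 to 8891399), a precursor of secreted neuropeptides, rose from 6.15, 5.01 and 4.74 to 14.6, 15.1 and 16.2 FPKM. The lowest inhibitor value exceeded the highest control value by more than 2-fold in each of the 3 genes.

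ITGA3 (ENSSSCG00000017578, chromosome 12, 26234769 to 26269327), an integrin subunit that binds laminin, rose 2.58-fold, from 10.99, 11.7 and 11.4 to 28.9, 30.04 and 29.1 FPKM. ALDH1A1, which oxidises retinal to retinoic acid, rose 2.69-fold. COTL1, an actin-binding protein, rose 2.43-fold. The polo-like kinase PLK2 rose 2.29-fold to 75.4 ± 1.94 FPKM, PCLAF, a partner of the replication clamp PCNA, 2.31-fold, and EIF5A2, a paralogue of the translation factor EIF5A, 2.60-fold. Among these rises, the log2 changes after scaling ran from 1.02 to 1.55.

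The same rule also named the small nucleolar RNAs SNORD49A and SNORD81, which guide methylation of ribosomal RNA and lie in introns of other genes. They rest on few reads. SNORD49A was read 17 times in the control libraries together and 55 times with the inhibitor, SNORD81 8 and 25 times, and SNORD81 lost its call under 2 of the alternatives. Of 124 tested small nucleolar and Cajal body RNAs, a group looked at after these values were seen, 21 rose and 0 fell (14 and 0 after scaling), with a median of 33 reads over the 6 libraries. The share called higher, 16.9% (11.3% after scaling), was under the 44.2% (25.7%) of all genes.

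**Figure D2:**
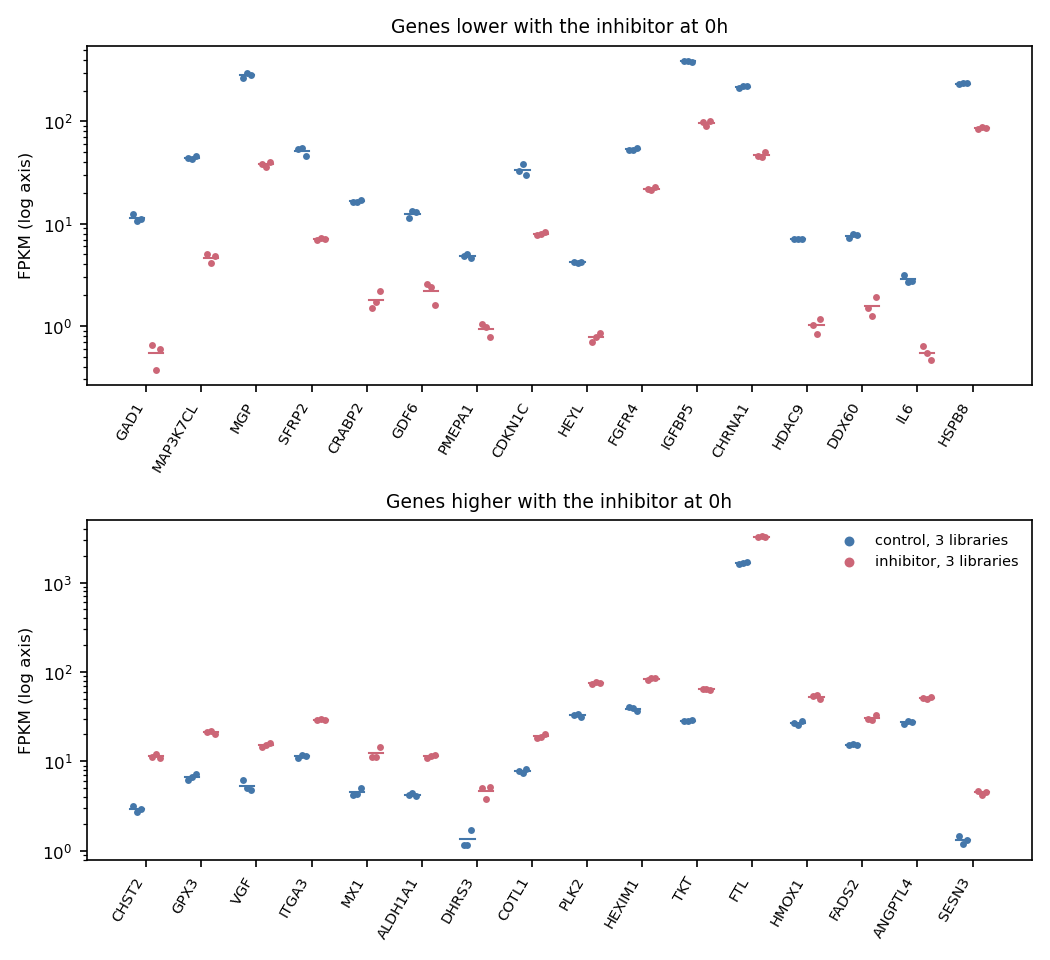
Each point is the FPKM of 1 gene in 1 library at 0h, on a log axis, with control libraries in blue, inhibitor libraries in red and a bar at each mean (n = 3). The upper panel holds 16 genes that fell and the lower 16 that rose. The 3 and 3 values of every gene shown lie apart, as they did for 66.8% of all genes.

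The programs outside sarcomere, matrix and cell cycle divided into those that lay above the typical gene, mainly nuclear RNA and chromatin proteins, lipid synthesis and antioxidant genes, and those that lay below it, mainly cell adhesion, actin, synapse, growth factor and amino acid genes. Each list is described by how many members passed the test over all 11636 genes, against 44.2% of all genes higher and 18.1% lower, and by its median, against 0.12. Another 9 lists stayed close to the typical gene in both scalings, with medians from 0.03 to 0.14 (-0.10 to 0.01 after scaling). These were glycolysis, ribosomal proteins, the proteasome, endoplasmic reticulum folding, lysosome and autophagy, p53 targets, Hedgehog, the circadian clock and HOX genes.

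**Figure D3:**
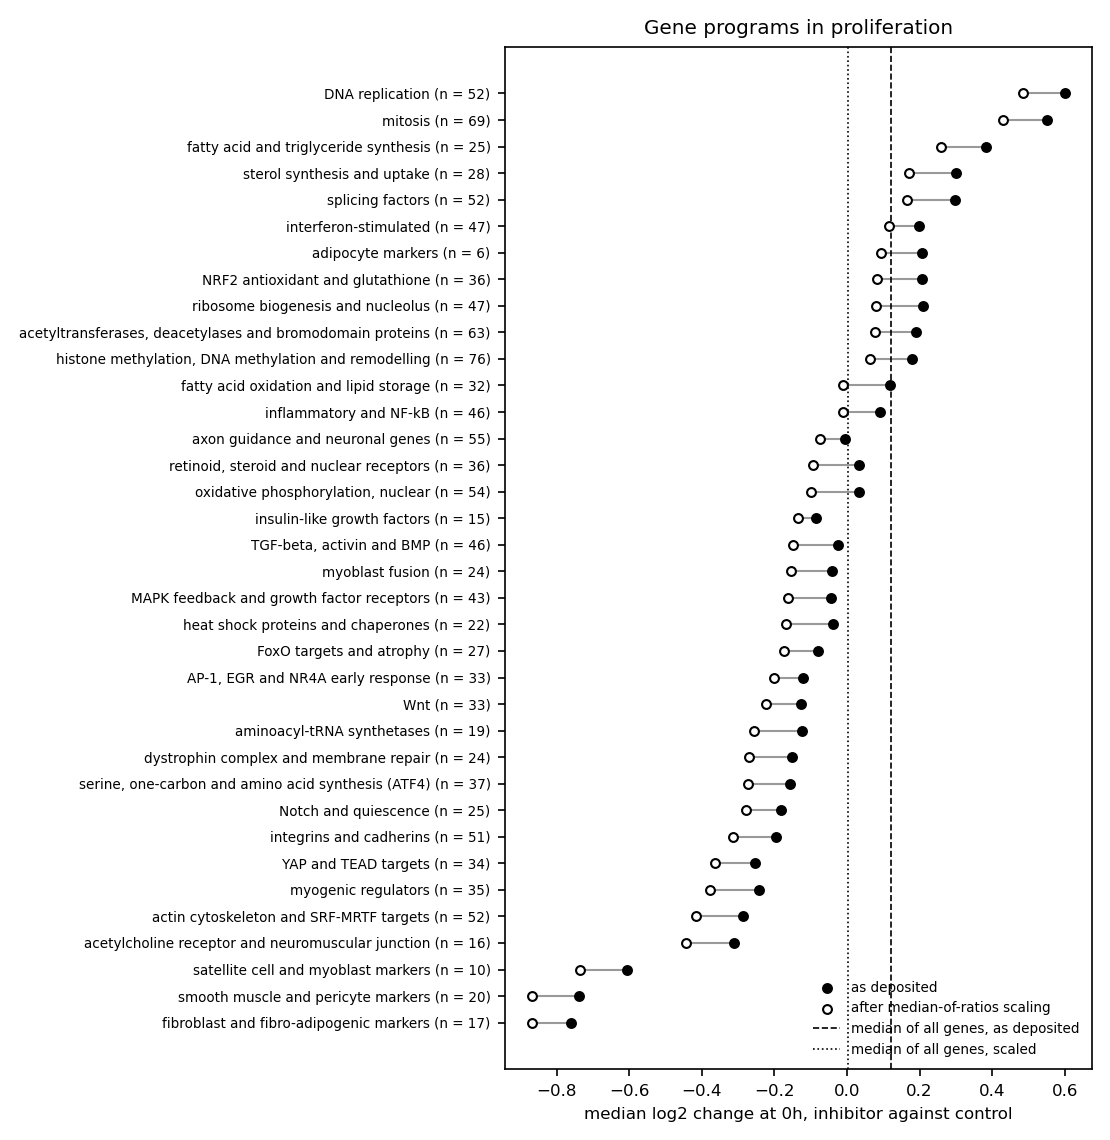
Each row is 1 of the 36 gene lists described, with its number of tested members. Filled points give the median log2 change between inhibitor and control at 0h as deposited, open points after median-of-ratios scaling, and the vertical lines the medians of all genes (0.12 and 0.00). Among the lists drawn, DNA replication stands highest at 0.60, fatty acid synthesis is the highest outside the cell cycle at 0.38 and fibroblast markers stand lowest at -0.76. The sarcomere list, not drawn, had a lower median of -1.55 (-1.63 after scaling).

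Regulators of the muscle lineage beyond MYOG were lower. Of 35 tested members, 4 rose and 22 fell (3 and 28 after scaling), with a median change of -0.24 (-0.38 after scaling). MEF2C, which activates contractile genes together with the MYOD family, stood at 34.5, 34.5 and 36.8 FPKM in control cells and 11.15, 11.15 and 12.6 FPKM with the inhibitor, a 3.04-fold fall (limma log2 change -1.53 with SE 0.0485, adjusted p = 2.18e-10). MYOD1, the lineage factor of myoblasts, fell 3.36-fold, MYF6, a late member of its family, 2.90-fold, and HAND2, a basic helix-loop-helix factor of heart and limb, 2.61-fold. Groups of each of these genes lay apart, as they did for 66.8% of all genes. The MYOD antagonist MSC fell as well (log2 change -0.85), as did MEF2D (-0.74). Members that rose included TCF3, TCF21 and SNAI1 (log2 change 0.27, 0.36 and 0.53).

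Genes of the neuromuscular synapse and of the sarcolemma were among the larger falls. CHRNA1, the alpha subunit of the muscle acetylcholine receptor, stood at 211, 224 and 222 FPKM in control cells and 46.3, 44.8 and 49.98 FPKM with the inhibitor, a 4.66-fold fall (limma log2 change -2.20 with SE 0.0439, adjusted p = 3.23e-12). MUSK, the kinase that assembles the synapse, fell 5.97-fold (from 8.08 ± 0.237 to 1.35 ± 0.105 FPKM). NES, the intermediate filament nestin, fell 2.14-fold from a high level (from 848 ± 8.13 to 397 ± 26.3 FPKM), and the acetylcholine-degrading enzyme ACHE 4.44-fold. Of 16 synapse genes tested, 4 rose and 9 fell (3 and 10 after scaling), with a median of -0.31 (-0.44 after scaling). AGRN, the nerve-derived agonist of MUSK signalling, was among those that rose (log2 change 0.33).

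In the dystrophin complex and membrane repair list, 6 rose and 13 fell of 24 (5 and 15 after scaling; median -0.15 (-0.27 after scaling)). The caveolin CAV3, which shapes the sarcolemma, fell 7.93-fold (from 8.08 ± 0.661 to 1.02 ± 0.187 FPKM). The sarcoglycans SGCA and SGCD fell 2.32-fold and 2.36-fold and dystrobrevin DTNA 3.09-fold. Dystrophin itself, DMD, fell by less (log2 change -0.77), and the repair protein DYSF rose (0.28). The fusion list was divided: 9 rose and 10 fell of 24 (7 and 12 after scaling), and its median of -0.04 (-0.15 after scaling) turned to 0.03 under quantile normalization. Its falls were led by MYMK and by CDH15, the muscle cadherin, and its rises included MYOF and the tetraspanin CD9.

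In the TGF-beta, activin and BMP family, ligands and a feedback gene were the largest falls. Over the whole list 10 rose and 19 fell of 46 (5 and 24 after scaling; median -0.02 (-0.15 after scaling)). The median near 0 was -0.035 without control replicate 2, -0.057 without control replicate 3, -0.006 without inhibitor replicate 1, -0.053 without inhibitor replicate 2 and -0.053 without inhibitor replicate 3. GDF6, a BMP-type ligand, stood at 11.4, 13.2 and 13.04 FPKM in control cells and 2.54, 2.38 and 1.61 FPKM with the inhibitor, a 5.75-fold fall (limma log2 change -2.10 with SE 0.120, adjusted p = 3.46e-08). TGFB3 and TGFB2, TGF-beta ligands, fell 2.74-fold and 2.27-fold, and INHBB, an activin subunit, 3.22-fold. PMEPA1, a target and feedback inhibitor of TGF-beta signalling, went from 4.86, 5.05 and 4.57 to 1.05, 0.988 and 0.785 FPKM. Follistatin, FST, which traps activins, fell too (log2 change -0.98), and the muscle growth inhibitor MSTN fell 1.81-fold.

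Other members rose. TGFB1 changed by 0.52 and GDF11 by 0.97. The BMP target genes ID1 and ID3, which block basic helix-loop-helix factors, changed by 0.82 and 0.53. None of SMAD2, SMAD3, SMAD4, SMAD6 and SMAD7 was called, their changes lying between 0.00 and 0.06.

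Wnt components were divided. Of 33 tested genes, 11 rose and 15 fell (8 and 18 after scaling; median -0.13 (-0.22 after scaling)). Besides SFRP2, the secreted modulator SFRP4 fell 4.59-fold, the receptor FZD2 2.36-fold (from 19.7 ± 0.766 to 8.36 ± 0.343 FPKM) and the ligand WNT9A 2.38-fold. The receptor FZD6 rose 1.71-fold.

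Genes of the Notch pathway were mostly lower in proliferation. Over 25 Notch and quiescence genes tested, 6 rose and 13 fell (1 and 17 after scaling; median -0.18 (-0.28 after scaling)). DLL1, a ligand, stood at 6.72, 6.48 and 6.03 FPKM in control cells and 1.78, 1.72 and 2.40 FPKM with the inhibitor, a 3.26-fold fall. The receptor NOTCH3 fell 2.13-fold (from 14.2 ± 0.378 to 6.63 ± 0.253 FPKM), and NOTCH1 changed by -0.50. HEYL, a target of the pathway, went from 4.20, 4.15 and 4.22 to 0.700, 0.773 and 0.850 FPKM (limma log2 change -1.55 with SE 0.0686, adjusted p = 3.51e-09). The targets HEY2 and HEY1 fell by less (-0.85 and -0.59). Groups of DLL1, NOTCH3 and HEYL did not overlap, as was so for 66.8% of all genes. CDKN1C, the p57 inhibitor of cyclin-dependent kinases that was listed with quiescence genes, fell 4.17-fold, from 32.4, 37.9 and 29.9 to 7.74, 7.96 and 8.35 FPKM.

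Growth factor receptors and feedback genes moved in both directions, 14 rose and 18 fell of 43 (11 and 21 after scaling; median -0.04 (-0.16 after scaling)). Their median was -0.025 without control replicate 2, -0.070 without control replicate 3 and -0.073 without inhibitor replicate 1. FGFR4, the FGF receptor of myoblasts, went from 52.0, 52.7 and 54.8 to 21.9, 21.4 and 22.9 FPKM, a 2.41-fold fall (limma log2 change -1.23 with SE 0.0418, adjusted p = 3.71e-10). PDGFB, a platelet-derived growth factor, fell 2.21-fold, and ETV1, a transcription factor downstream of FGF signals, 1.92-fold. The phosphatases that restrain MAP kinases moved apart: DUSP10 and DUSP8 fell 2.32-fold and 2.37-fold, while DUSP5 and DUSP6 rose (log2 change 0.84 and 0.59).

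Among insulin-like growth factor genes, IGFBP5, the binding protein secreted by differentiating myoblasts, was the largest change. It stood at 386, 390.4 and 385 FPKM in control cells and 99.8, 89.3 and 101 FPKM with the inhibitor, a 4.004-fold fall (limma log2 change -1.99 with SE 0.0650, adjusted p = 2.59e-10). The protease PAPPA, which cleaves binding proteins, and its inhibitor STC2 fell 1.94-fold and 1.83-fold, and the receptor IGF1R 1.70-fold. IGFBP2 went the other way, from 151, 145 and 148 to 229, 231 and 214 FPKM. In all, 3 rose and 7 fell of 15 (2 and 7 after scaling; median -0.09 (-0.13 after scaling), and -0.02 without control replicate 1).

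Targets of the mechanosensitive factors YAP and TEAD and of SRF were lower. Of 34 YAP and TEAD genes, 8 rose and 19 fell (5 and 24 after scaling; median -0.25 (-0.36 after scaling)). CCN3, a matricellular protein, went from 5.79, 5.40 and 5.60 to 0.915, 1.26 and 1.13 FPKM, a 5.08-fold fall. Tissue factor F3 fell 2.72-fold, and ANKRD1, a stress-responsive ankyrin repeat protein of muscle, fell 2.07-fold (from 482 ± 14.1 to 233 ± 9.27 FPKM). VGLL2, a TEAD partner in muscle, fell to 0.516 ± 0.0721 FPKM. The coactivator WWTR1 (TAZ) fell (log2 change -1.03), and its paralogue YAP1 changed by 0.22 (0.10 and not called after scaling).

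Of 52 actin and SRF genes, 12 rose and 30 fell (7 and 38 after scaling; median -0.29 (-0.42 after scaling)). CAVIN4, a caveola protein of muscle, fell 6.25-fold. PALLD, which bundles actin, stood at 187, 189.5 and 187 FPKM in control cells and 84.1, 80.97 and 84.8 FPKM with the inhibitor (limma log2 change -1.16 with SE 0.0237, adjusted p = 3.83e-12). NEXN, an actin-binding protein, fell 2.03-fold and CAV1 1.92-fold. The cytoplasmic actins ACTB and ACTG1 changed by 0.04 and 0.13 and lay at or under the typical gene after scaling (-0.09 and 0.00). Among the rises were the focal adhesion protein TES (0.76) and the small GTPase RND3 (0.57).

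Adhesion receptors were lower in the same way: 10 rose and 29 fell of 51 (7 and 32 after scaling; median -0.20 (-0.31 after scaling)). MCAM, an immunoglobulin-type adhesion protein also used as a pericyte marker, fell 3.42-fold, from 141, 136 and 140.0 to 40.7, 39.6 and 41.6 FPKM. CDH15 fell 2.93-fold (from 55.96 ± 0.915 to 19.1 ± 1.27 FPKM), CDH13, a cadherin without a cytoplasmic tail, 2.61-fold, and SDC2, a heparan sulfate proteoglycan, 2.70-fold. ITGA8, an integrin subunit that binds RGD ligands, fell 3.58-fold. ITGA3 stood against this direction, as did ITGA6, the other laminin-binding subunit that rose (0.48), while ITGA7, the laminin receptor subunit of muscle, fell (-0.57).

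Guidance and neuronal genes moved in both directions: 18 rose and 20 fell of 55 tested (16 and 23 after scaling), and the sign of the median (-0.07 after scaling) depended on which library was left out: it was 0.002 without control replicate 1, -0.015 without control replicate 2, 0 without control replicate 3, 0.035 without inhibitor replicate 1, 0.014 without inhibitor replicate 2 and -0.034 without inhibitor replicate 3. SEMA3G, a secreted semaphorin, went from 5.11, 5.07 and 5.02 to 0.594, 0.479 and 0.778 FPKM, an 8.22-fold fall. SEMA6B fell 4.28-fold, the semaphorin receptor NRP2 2.28-fold and the neurofilament NEFH 2.42-fold. The ephrins EFNB1 and EFNA4 rose beside VGF (log2 change 0.94 and 0.91).

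Genes of retinoid handling moved in opposite directions. The carrier CRABP2 and the receptor RXRG fell, as did CYP26B1, which degrades retinoic acid and is a target of its receptors (3.22-fold, from 9.03 ± 0.269 to 2.81 ± 0.426 FPKM). The enzymes ALDH1A1 and DHRS3 rose. ALDH1A1 went from 4.26, 4.44 and 4.05 to 10.9, 11.6 and 11.8 FPKM, and DHRS3, which reduces retinal to retinol, from 1.18, 1.17 and 1.71 to 5.001, 3.84 and 5.13 FPKM. The receptor RARB changed by -0.62. Over the list of retinoid, steroid and nuclear receptor genes 13 rose and 12 fell of 36 (7 and 17 after scaling), and its median of 0.03 fell to -0.09 after scaling, -0.035 under quantile normalization and -0.004 under TPM scaling. It was 0.078 without control replicate 2, 0.077 without control replicate 3, 0.018 without inhibitor replicate 1 and 0.056 without inhibitor replicate 2. In the same list the aryl hydrocarbon receptor AHR fell (-0.81) while its target CYP1A1, a monooxygenase, rose from 25.2, 28.5 and 25.2 to 51.04, 47.3 and 49.99 FPKM, and CYP1B1, another target, changed by -0.22.

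Interferon-stimulated genes as a group lay somewhat above the typical gene, with single members far from it in both directions. Of 47 tested, 23 rose and 3 fell (16 and 6 after scaling; median 0.20 (0.12 after scaling)), and the 48.9% called higher compares with 44.2% of all genes. The 6.38% called lower compares with 18.1% of all genes, and the 16 of 47 higher after scaling with 25.7%. MX1, an antiviral GTPase, went from 4.24, 4.34 and 5.01 to 11.3, 11.3 and 14.5 FPKM. OAS2, which senses double-stranded RNA, rose 1.74-fold and IFI44L 1.86-fold, and the transcription factor IRF1 changed by 0.63. DDX60, an antiviral helicase, went the other way: it went from 7.18, 7.90 and 7.80 to 1.51, 1.27 and 1.93 FPKM, a 4.87-fold fall (limma log2 change -1.76 with SE 0.0903, adjusted p = 1.34e-08). IFIT1, which binds viral RNA caps, fell 1.74-fold.

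Inflammatory genes divided, 20 rose and 10 fell of 46 (11 and 13 after scaling), with a median of 0.09 that fell to -0.01 after scaling. IL1RL1, the receptor of interleukin 33, fell 3.91-fold, from 16.8, 14.1 and 15.3 to 4.06, 3.91 and 3.83 FPKM. PTGS2, the inducible cyclooxygenase, fell 3.42-fold and the cytokine IL6 5.23-fold, to 0.547 ± 0.0852 FPKM. IL11, a cytokine of the same family as IL6, rose 4.39-fold to 2.26 ± 0.405 FPKM, and the adhesion receptor VCAM1 2.39-fold to 2.36 ± 0.199 FPKM. The last 3 are low genes.

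Lipid synthesis genes were higher together. Of 25 fatty acid and triglyceride genes, 21 rose and 1 fell (17 and 3 after scaling; median 0.38 (0.26 after scaling)). FADS2, a fatty acid desaturase, went from 15.3, 15.8 and 15.3 to 30.1, 29.3 and 32.8 FPKM (limma log2 change 0.95 with SE 0.0444, adjusted p = 5.89e-09). LPIN1, a phosphatidate phosphatase, rose 2.02-fold, the fatty acid synthase FASN 1.75-fold (from 25.8 ± 1.22 to 45.3 ± 0.542 FPKM) and ACSL4, which activates arachidonic acid, 1.76-fold. AGPAT2, an acyltransferase of triglyceride synthesis, was the 1 of the list that fell before scaling (1.78-fold). Of 28 sterol genes, 22 rose and 1 fell (17 and 3 after scaling; median 0.30 (0.17 after scaling)). Adipocyte markers, the cell type that bears on these lists, were low: 5 of 11 stayed under 1 FPKM in all 6 libraries, among them ADIPOQ, PLIN1 and LEP, which define the type. Their summed level was 29.9 to 31.6 FPKM in the control libraries and 34.97 to 37.7 FPKM in the inhibitor libraries. Of 6 tested, 3 rose and 1 fell (3 and 2 after scaling). The rises were PPARG (from 1.51 ± 0.0956 to 3.52 ± 0.328 FPKM), CEBPA (from 0.843 ± 0.183 to 1.46 ± 0.122 FPKM) and ADIPOR2 (from 13.8 ± 0.438 to 18.1 ± 0.474 FPKM), the highest of the list. LIPE fell (mean 5.555 to 4.665 FPKM), a call lost without control replicate 3, and FABP4 and LPL were not called. The part of adipocytes in the lipid genes' rise was not tested.

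In the oxidation and storage list the largest called rises were those of ANGPTL4, PPARG, PPARD and PLIN2. ANGPTL4, a secreted inhibitor of lipoprotein lipase, went from 26.04, 28.1 and 27.7 to 51.6, 49.8 and 52.9 FPKM. The receptors PPARG and PPARD rose 2.33-fold and 1.73-fold, and PLIN2, which coats lipid droplets, 1.65-fold. CPT1B, the muscle form of the enzyme that brings fatty acids into mitochondria, fell 1.62-fold. In all 16 rose and 6 fell of 32 (12 and 11 after scaling), and the median of 0.12 was -0.01 after scaling.

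Antioxidant and glutathione genes included rises at high levels. In the list 24 rose and 7 fell of 36 (16 and 9 after scaling; median 0.21 (0.08 after scaling)). FTL, the light chain of the iron store ferritin, stood at 1597, 1667 and 1685 FPKM in control cells and 3228, 3323 and 3215 FPKM with the inhibitor (limma log2 change 0.98 with SE 0.0313, adjusted p = 2.23e-10). Ferritin has many near-identical copies, so its count may include reads of others. TKT, the transketolase of the pentose phosphate pathway, rose 2.23-fold (from 28.6 ± 0.343 to 63.7 ± 1.25 FPKM), and the heme oxygenase HMOX1 rose 1.97-fold (from 26.8 ± 1.22 to 52.8 ± 2.61 FPKM). PRDX1, GCLC and TXNRD1 changed by 0.63, 0.61 and 0.60. AKR1B1, aldose reductase, fell 1.91-fold, and so did the cystine transporter SLC7A11 (1.67-fold). NFE2L2, the gene of the antioxidant regulator NRF2, changed by -0.09, a call that did not hold without control replicate 3 or without inhibitor replicate 2.

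Genes of amino acid synthesis and transport that answer to ATF4 were lower, 7 rose and 20 fell of 37 (5 and 26 after scaling; median -0.16 (-0.27 after scaling)). NUPR1, a stress-induced chromatin protein, fell 1.79-fold (from 52.6 ± 2.70 to 29.4 ± 1.97 FPKM), and MTHFD2, of mitochondrial one-carbon metabolism, 1.61-fold. ATF4 itself changed by -0.41 and asparagine synthetase ASNS by -0.49. DDIT4, an inhibitor of mTORC1, rose 1.75-fold. The aminoacyl-tRNA synthetases, which charge transfer RNAs, showed the same direction with smaller sizes: 4 rose and 11 fell of 19 (1 and 15 after scaling; median -0.12 (-0.26 after scaling)), led by WARS1 (1.39-fold) and AARS1 (1.30-fold), with HARS1 rising 1.31-fold.

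Small heat shock proteins led the chaperone list, of which 6 rose and 9 fell of 22 (0 and 13 after scaling; median -0.04 (-0.17 after scaling)). The list's median was -0.011 without control replicate 2 and -0.019 without inhibitor replicate 2. HSPB8 went from 231, 235 and 235 to 83.8, 88.5 and 87.1 FPKM, a 2.70-fold fall (limma log2 change -1.42 with SE 0.0360, adjusted p = 2.92e-11), HSPB6 fell 3.003-fold and CRYAB 1.51-fold. All are chaperones abundant in muscle. HSP90AA1 and HSPA8 changed by 0.18 and 0.15 (0.04 and 0.01, and not called, after scaling).

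Early response factors moved in both directions, more often down: 7 rose and 14 fell and 12 were not called, of 33 (5 and 17 after scaling; median -0.12 (-0.20 after scaling)). NR4A1, an orphan nuclear receptor, fell 2.01-fold, MAFF 2.10-fold and EGR1 2.14-fold, whereas IER3 rose 2.12-fold (from 21.1 ± 0.602 to 44.6 ± 2.44 FPKM). JUN was not called (log2 change -0.08). FoxO targets divided, 9 rose and 10 fell of 27 (7 and 12 after scaling; median -0.08 (-0.17 after scaling)). That median was -0.040 without control replicate 2 and -0.035 without inhibitor replicate 1. SESN3, a stress-induced regulator of mTORC1, rose from 1.47, 1.19 and 1.31 to 4.70, 4.26 and 4.60 FPKM, and the glucocorticoid targets moved apart, FKBP5 rising 1.70-fold and TSC22D3 and KLF9 falling 1.78-fold and 1.90-fold.

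As deposited, chromatin proteins were mostly higher by small amounts, with a pair of large exceptions among the acetylation genes. After scaling most were not called higher, beside 25.7% of all genes called higher. HDAC9, a class IIa deacetylase that binds MEF2 factors, stood at 7.09, 7.09 and 7.01 FPKM in control cells and 1.03, 0.842 and 1.17 FPKM with the inhibitor, a 6.98-fold fall (limma log2 change -2.01 with SE 0.0758, adjusted p = 9.07e-10). HEXIM1, which holds the elongation kinase P-TEFb inactive, went from 40.99, 39.3 and 36.2 to 80.9, 85.4 and 86.4 FPKM, a 2.17-fold rise (limma log2 change 1.10 with SE 0.0418, adjusted p = 9.81e-10). CDK9, the kinase of P-TEFb, changed by 0.44 and BRD2 by 0.54. HDAC1, a class I deacetylase, rose 1.67-fold, the histone acetyltransferase HAT1 1.72-fold and the bromodomain ATPase ATAD2 1.81-fold. Over 63 acetyltransferases, deacetylases and bromodomain proteins, 38 rose and 6 fell (26 and 14 after scaling; median 0.19 (0.08 after scaling)).

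Of 76 histone methylation, DNA methylation and remodelling genes, 50 rose and 4 fell (31 and 16 after scaling; median 0.18 (0.06 after scaling)). Polycomb members were among the larger rises: CBX2 rose 2.47-fold to 3.40 ± 0.188 FPKM, CBX6 1.92-fold, and the methyltransferase EZH2 1.75-fold (from 8.23 ± 0.494 to 14.4 ± 0.850 FPKM). The high-mobility group genes HMGB2 and HMGA1 rose 1.77-fold and 1.71-fold. SMARCD3, the remodeller subunit that partners MYOD1, fell by 0.71 on the log2 scale.

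Splicing factors were mostly higher. Of 52 tested, 44 rose and 1 fell (33 and 3 after scaling; median 0.30 (0.17 after scaling)). U2AF2, which recognises the polypyrimidine tract, rose 1.56-fold, from 58.2, 58.01 and 56.4 to 88.4, 90.8 and 89.9 FPKM, and PTBP1, a repressor of exons, 1.44-fold. QKI, a splicing regulator of muscle and other tissues, was the 1 that fell (1.54-fold, from 106 ± 3.97 to 68.8 ± 2.86 FPKM). Ribosome biogenesis genes were higher as well, 33 rose and 2 fell of 47 (12 and 3 after scaling; median 0.21 (0.08 after scaling)), with nucleolin NCL 1.41-fold and NOP56 1.35-fold higher. Most of those calls were lost after scaling, which left 12 of 47 beside 25.7% of all genes.

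Messenger RNAs encoded by the mitochondrial chromosome rose unequally, while most nuclear genes of the same complexes were not called before scaling. This group was chosen after its values were seen. Of the 13 transcripts, 11 rose and 0 fell (8 and 1 after scaling), with a median change of 0.51 (0.38 after scaling). COX2, a subunit of cytochrome oxidase, stood at 1971, 1888 and 1899 FPKM in control cells and 3512, 3435 and 3259.6 FPKM with the inhibitor, and ATP6, of the ATP synthase, at 2907, 2888 and 2934 against 4767, 4877 and 4450.5 FPKM. COX1, also of cytochrome oxidase, stood at 11286, 11711 and 12036 against 11490.0, 11147 and 10602 FPKM, with overlapping groups, and was the transcript called lower after scaling (-0.21). Together these genes took 3.63, 3.68 and 3.79% of the recovered reads in the control libraries and 4.35, 4.26 and 4.03% with the inhibitor. Of 54 nuclear genes of oxidative phosphorylation, 7 rose and 4 fell (5 and 19 after scaling), and their median of 0.03 was -0.10 after scaling and -0.005 under TPM scaling. As deposited it was 0.022 without inhibitor replicate 2 and 0.062 without inhibitor replicate 3. The largest of their rises was NDUFB10 (1.26-fold). Whether the mitochondrial share follows from RNA quality was not tested.

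**Figure D4:**
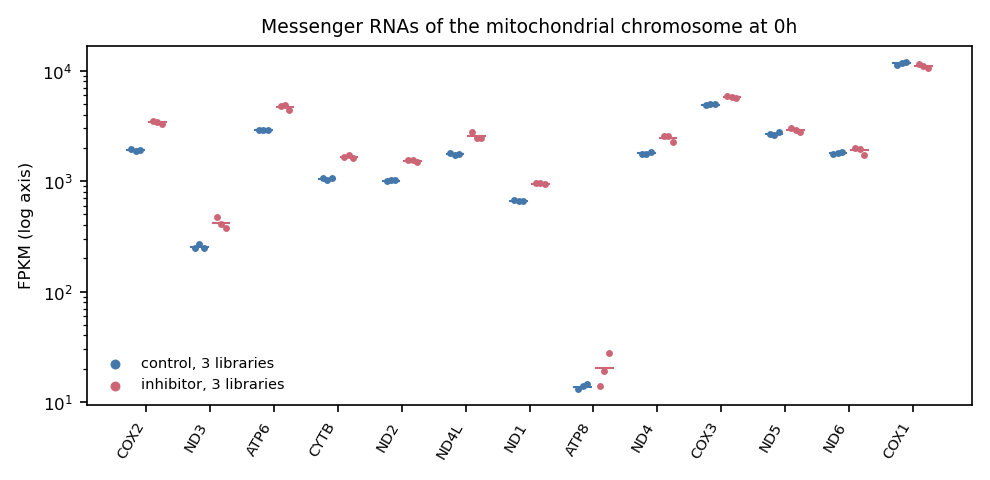
Each point is the FPKM of 1 of the 13 protein-coding genes of the mitochondrial chromosome in 1 library at 0h, on a log axis, ordered by their change after scaling, with bars at the means (n = 3). COX2, ND3, ATP6 and CYTB stand clearly higher with the inhibitor, and COX1, at the right, does not.

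Markers of cell types were measured beside these results. Satellite cell and myoblast markers were present and lower with the inhibitor: of 10 tested, 1 rose and 9 fell (median -0.61 (-0.73 after scaling)), and their summed level lay at 1615 to 1649.7 FPKM in the control libraries and 756 to 804 FPKM in the inhibitor libraries. PAX7, the defining factor of satellite cells, stood at 14.4, 14.3 and 14.6 FPKM in control cells and 9.02, 8.56 and 9.04 FPKM with the inhibitor. DES, the muscle intermediate filament and the highest of the list, fell 3.71-fold, from a mean of 788 to 213 FPKM. MYF5 and MET fell by less (from 136 to 115 and from 48.9 to 43.9 FPKM). VCAM1 was the 1 that rose (from 0.987 to 2.36 FPKM), and CALCR, below the filter, averaged 0.534 and 1.02 FPKM. Smooth muscle and pericyte markers fell too, 19 of 20 (20 after scaling), with summed levels of 6877 to 7060.5 FPKM in the control libraries and 3254 to 3397 FPKM in the inhibitor libraries. In control cells ACTA2 averaged 2571 FPKM of that sum, TAGLN 991, TPM2 980 and DES, also on the satellite cell list, 788. RGS5, ABCC9 and KCNJ8 averaged only 0.36, 0.139 and 0.0676 FPKM there, and PDGFRB and MCAM 21.2 and 138.9 FPKM.

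Fibroblast and fibro-adipogenic markers were mostly lower with the inhibitor, and a few genes carried most of their summed level. In control cells COL1A2 averaged 1909 FPKM, COL1A1 653, S100A4 517 and COL3A1 320. THY1 averaged 100.9 FPKM there, but several others were low: PDGFRA averaged 3.63, DPT 2.59, PI16 1.265, CD34 0.845 and CLEC3B 0.311. Of 17 tested, 1 rose and 11 fell (1 and 13 after scaling; median -0.76 (-0.87 after scaling)), with summed levels of 3709 to 3882 FPKM in the control libraries and 2276 to 2367 FPKM in the inhibitor libraries. DCN, a matrix proteoglycan, went from 38.3, 37.7 and 35.9 to 10.8, 13.2 and 11.5 FPKM, DPP4 fell 3.81-fold, MFAP5 3.098-fold and COL1A1 2.22-fold. TCF21 rose, and S100A4 (log2 change -0.01), THY1, TCF7L2, DPT and CFD were not called. In bulk RNA, fewer cells of a type and less RNA per cell cannot be told apart, and the part of a change in cell mixture in the falls of matrix, adhesion, TGF-beta and Wnt genes was not tested.

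Markers of other cell types were low. Of 16 endothelial markers, 9 stayed under 1 FPKM in all 6 libraries, of 16 immune markers 13, of 11 epithelial markers 10 and of 10 Schwann cell markers 7. The defining immune gene PTPRC, epithelial EPCAM and KRT5 and T cell CD3E stood at or near 0. The highest were ENG at 6.17 FPKM, CD68 at 4.38 FPKM and ERBB3, a neuregulin receptor that myoblasts also carry, at 111 FPKM.

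The same contrast in differentiation at 60h rests on 6 other libraries, so the effects share no sample. There the inhibitor libraries had 44.7% of all genes higher and 27% lower. Of the 321 large falls at 0h, 276 (86.0%) were also called lower at 60h and 27 (8.41%) higher. Of the 48 large rises, 25 (52.1%) were also higher at 60h and 8 (16.7%) lower. The difference between the effects, tested as an interaction, was called for 5927 genes (50.9%), and 997 genes (8.57%) were called in opposite directions at the 2 times with a called interaction, 366 of them lower at 0h and higher at 60h.

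Some of the leading genes had effects of much the same size at both times. GAD1 changed by -3.005 at 0h and -2.96 at 60h (interaction 0.04, limma adjusted p = 0.783), MAP3K7CL by -3.005 and -3.07 (adjusted p = 0.567), and HDAC9 by -2.01 and -1.80 (adjusted p = 0.13). Values that miss the threshold do not show that the effects are equal. CRABP2 fell further at 60h (-4.73), and GPX3 and HEXIM1 rose further (2.53 and 1.53), each with a called interaction.

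Other programs differed between the times. Interferon-stimulated genes, of which 23 rose and 3 fell at 0h, gave 1 higher and 43 lower at 60h (median -1.41), and the interaction was called for 42 of 47. Notch and quiescence genes, with 13 falls at 0h, gave 17 rises and 5 falls at 60h (median 0.35), with 19 of 25 interactions called. Satellite cell markers went from a median of -0.61 to 0.38, with the interaction called for 10 of 10. Ribosome biogenesis went from 0.21 to -0.17 (38 of 47 interactions), and mitochondrially encoded transcripts from 0.51 to -0.12 (10 of 13). Genes of amino acid synthesis fell further, from -0.16 to -0.64, and the tRNA synthetases from -0.12 to -0.60. The splicing factors had medians of 0.30 and 0.32, with 21 of 52 interactions called.

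**Figure D5:**
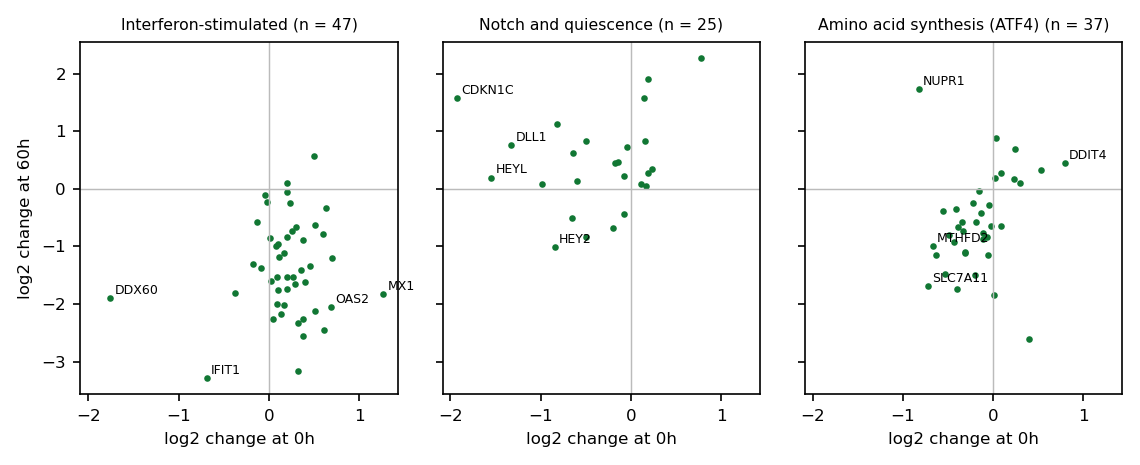
Each point is 1 gene, with its log2 change between inhibitor and control at 0h on the x axis and at 60h on the y axis, for interferon-stimulated genes, Notch and quiescence genes and amino acid synthesis genes. Interferon genes lie mostly right of 0 and below it, with MX1 the farthest to the right, and CDKN1C lies at the upper left of the Notch panel.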

How the data were processed

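RNA-seq libraries of 4 groups of 3 were made from total RNA with the VAHTS Universal V8 kit, per the labels' protocols. The submitters' processing notes name Trimmomatic, featureCounts and the build Sscrofa11.1, without versions. No aligner, annotation release or strand setting is given in the sources used here, so a gene cannot be separated from an antisense or overlapping neighbour. The FPKM table that the authors deposited covers 31908 genes and keeps the replicates apart. Symbols came from the table (16801 genes) or the pig reference table (687). Positions came from RefSeq for Sscrofa11.1, looked up by gene identifier and, where that gave none, by symbol.

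Because FPKM values step by the worth of 1 read, whole reads were recovered for all 22521 genes above 0 (100.0% of values whole within 0.01 reads). They gave the depth and the reads behind a value. They entered no test, since the deposited unit is FPKM.

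Genes with 1 FPKM or more in at least 3 of 12 libraries were fitted on log2(FPKM + 1) by limma 3.58.1 (R 4.3.3). The design had 1 mean per group, all 12 libraries and a trended empirical Bayes spread. Tests were two-sided, adjusted by Benjamini-Hochberg over 11636 genes within each comparison. The script was tested on simulated data. Same-numbered control and inhibitor libraries at 0h did not deviate together (correlations of -0.071, -0.056 and -0.094), so no replicate block was used. Replicates of a group differed by more than sampling noise.

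The groups and the gene lists were chosen with earlier results of these data known. Of 1613 symbols on the 36 lists described, 1307 passed the filter, and the counts cover those only. The text names the 12 largest rises and falls at 0h among called, non-overlapping genes with a mean of 5 FPKM or more outside the sarcomere, matrix, smooth muscle and cell cycle lists, up to 5 called members of each list, CREBBP and EP300, genes near 0 in 1 group, and the 6 largest opposite effects at 0h and 60h. Other genes were named after their values were seen, and some genes that the rule names are not reported here. Alternatives were median-of-ratios, TPM and quantile scaling, a pseudocount of 0.1, no filter, a filter at 5 FPKM, no variance trend, a replicate block, the 6 libraries at 0h alone and leaving out each library.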

Additional observations from a re-analysis of the deposited data

Results flagged for a closer look

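The inhibitor effect was called at both times, in opposite directions and with a called interaction, in 997 genes, of which 366 were lower at 0h and higher at 60h and 631 were the reverse. The 6 with the largest difference between the effects and a mean of 5 FPKM or more in any group are given here. Each difference is the effect at 60h minus that at 0h on the log2 scale, from limma's interaction term over 3 libraries a group.

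CDKN1C, the p57 cell cycle inhibitor, stood at 32.4, 37.9 and 29.9 FPKM in control and 7.74, 7.96 and 8.35 FPKM in inhibitor libraries at 0h, and 31.3, 27.7 and 27.5 and 93.3, 76.9 and 94.9 FPKM at 60h. The effect was lower in proliferation and higher in differentiation, a difference of 3.51 (limma adjusted p = 1.64e-09), and the groups did not overlap at either time. MYH8, the perinatal myosin heavy chain, stood at 13.9, 15.3 and 14.6 FPKM in control and 2.69, 3.26 and 2.81 FPKM in inhibitor libraries at 0h, and 51.001, 50.4 and 48.2 and 119, 109 and 126 FPKM at 60h, a difference of 3.22 (limma adjusted p = 1.49e-10). Myosin genes of this cluster are near-identical, and how their reads were divided is not known.

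MX1, the antiviral GTPase, stood at 4.24, 4.34 and 5.01 FPKM in control and 11.3, 11.3 and 14.5 FPKM in inhibitor libraries at 0h, and 61.9, 80.7 and 67.6 and 17.6, 17.99 and 21.02 FPKM at 60h. Its effect was higher in proliferation and lower in differentiation, a difference of -3.10 (limma adjusted p = 2.28e-08). ESM1, a secreted proteoglycan known from endothelium, stood at 43.5, 44.9 and 41.1 FPKM in control and 60.4, 61.2 and 54.1 FPKM in inhibitor libraries at 0h, and 52.7, 55.1 and 55.7 and 6.86, 6.59 and 7.35 FPKM at 60h, a difference of -3.24 (limma adjusted p = 5.74e-11). CYP1B1, a monooxygenase, stood at 40.9, 39.8 and 37.1 FPKM in control and 32.8, 33.1 and 34.8 FPKM in inhibitor libraries at 0h, and 9.36, 10.1 and 9.83 and 78.1, 75.6 and 76.4 FPKM at 60h, a difference of 3.07 (limma adjusted p = 1.02e-11) that comes almost wholly from 60h.

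The precursor of MIR1-2 stood at 1.23, 0.641 and 6.79 FPKM in control and 0, 0 and 0 FPKM in inhibitor libraries at 0h, and 0, 2.61 and 0 and 8.88, 5.60 and 3.70 FPKM at 60h, a difference of 3.75 (limma adjusted p = 0.00225). It rests on 14 reads at 0h, and values of 0 in the other libraries leave this the least secure of the 6.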

How the results depend on the processing

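Counts of calls kept within 1.5 times of the reported ones except as follows. Median-of-ratios scaling gave 2990 higher genes in place of 5148. At a log2 change of 1 or more, the higher genes numbered 31 after that scaling, 89 under TPM scaling, 159 with a pseudocount of 0.1 and 30 with a filter at 5 FPKM, in place of 48, and the lower genes 529 with a pseudocount of 0.1 in place of 321. Leaving out each library gave 4708 to 4878 higher and 1946 to 2044 lower genes. With a replicate block, although the replicate numbers do not pair the libraries, 4924 genes were higher and 2031 lower. Medians of lists near 0 changed sign: fatty acid oxidation to -0.01, nuclear oxidative phosphorylation to -0.10, inflammatory genes to -0.012 and nuclear receptors to -0.095 under median-of-ratios scaling. Under TPM scaling oxidative phosphorylation gave -0.005 and nuclear receptors -0.004, and under quantile normalization nuclear receptors gave -0.035 and myoblast fusion 0.034. Adipocyte markers went from 0.205 to -0.096 with the filter at 5 FPKM. The median of guidance genes ran from -0.034 to 0.035 over the left-out libraries, and medians of other lists near 0 also moved by over 1.5 times when a library was left out, as given beside them. Other settings moved such medians too. Among these, the filter at 5 FPKM gave -0.151 for growth factor receptors and feedback genes and -0.207 for Wnt. TPM scaling gave -0.162 for insulin-like growth factors, and quantile normalization -0.104 for the TGF-beta list. SNORD81 lost its call under TPM scaling (limma adjusted p = 0.0762) and a pseudocount of 0.1 (0.199), and MIR1-2 without the filter (0.0744) and without each inhibitor library (0.0593 to 0.0601). The causes were not tested. Depth limits genes under about 1 FPKM, whose values rest on few reads.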
